A study of Rattus norvegicus with 18 samples.

Results

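DNA replication and G1/S genes, the set that a cell needs to leave G1, license its origins and copy its DNA, were followed across 18 cultures of rat extraembryonic endoderm precursor cells. The set was a list of 44 symbols matched by name to the deposited count files, of which 43 were found among 28695 genes and 42 had enough counts to be tested. E2f1 is not analysed here. E2f2, an activating E2F factor, was found at 0 to 1.63 CPM, the unit of level used throughout (counts scaled by library size), and was too low to test.

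The cells, which the labels call rat XENP, were female, of the WKY strain, and derived from blastocysts. They are known to resemble a precursor of primitive endoderm that keeps Pou5f1 beside Gata factors. The 18 libraries formed 6 groups of 3. Normal cells were grown in routine culture. Vacuolated cells were grown in the same routine culture with 0.5 µM CHIR99021, a GSK3 inhibitor that activates WNT signalling, or with 14% BCS, a supplement the labels do not spell out. A further CHIR99021 group was sorted, on a property the labels do not name. Both vesicle groups received CHIR99021, one in serum and the other in serum-free medium. For vesicles the protocol gives 3 µM CHIR99021 and 10 ng/ml murine LIF in N2B27 medium, without the MEF feeder cells and the inhibitors PD0325901 and Y-27632 of the method it cites. That recipe was taken to describe the serum-free vesicles, and neither the dose nor the medium of the serum vesicles is plain from the labels. Passage numbers ran from 32 to 51, and the libraries of a group stood at different passages. The labels do not say whether replicates came from separate derivations, so the p-values measure the spread between these cultures, which may be technical.

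Eukaryotic cells license origins in G1, when ORC and CDC6, with CDT1, load the ring of MCM2 to MCM7 onto DNA. In S phase, cyclin E with CDK2 and further kinases turn that ring into an active helicase with CDC45 and the GINS complex, and the clamp PCNA then tethers the polymerases that copy the strands. The genes of most of these proteins are textbook targets of E2F factors. RB proteins hold E2F in check until cyclin D kinases phosphorylate them, and the inhibitors p21 (Cdkn1a) and p27 (Cdkn1b) oppose the cyclin kinases.

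Libraries held 4.05 M to 12.1 M strand-specific counts. A pair of genes with clone-style names took 37.6 to 61.1% of them, and 1.92 M to 6.54 M counts remained for the others. Outside that pair, the share of counts from mitochondrially encoded genes was 3.13 to 3.38% in normal cells, 2.88 to 4.32% in the unsorted vacuolated groups, 6.76 to 8.91% after sorting and 7.11 to 9.43% in vesicles. This share was thus higher in the groups in which more replication genes fell, and its part in the results was not tested.

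Markers listed for the precursor cells summed to 1447 to 1693 CPM in normal cells, and to 718 to 850 CPM (serum) and 975 to 1134 CPM (serum-free) in vesicles. Of these 8 markers 5 were lower and 1 higher with serum, and 4 and 2 without, against normal cells. Foxa2 rose in both kinds of vesicle (log2 0.96 ± 0.16 SE, adjusted p = 1.82e-05; log2 0.87 ± 0.16 SE, adjusted p = 6.01e-05) and Pdgfra without serum (log2 0.57 ± 0.16 SE, adjusted p = 0.00412), while Pou5f1 stood at 102 to 133 CPM in normal cells and at 0 to 1.63 CPM in vesicles, so that marker of the labelled cell type was near 0 there. Sums of 8 fibroblast markers were 1.06 to 15.9 CPM over all libraries, with Dcn and Postn at 0 in each. Sums of 6 trophoblast markers were 3.62 to 10.1 CPM in normal and vacuolated cells and 19.2 to 32.4 CPM in vesicles, where Cdx2, at 0 in normal cells, stood at 17.2 to 31.6 CPM. Eomes, the other tested marker of that list, fell, with 6.96 to 8.97 CPM in normal cells and 0.417 to 1.38 CPM in vesicles, and Tfap2c stood at 0.576 to 0.897 CPM in normal cells and 0 to 0.243 CPM in vesicles. Sums of 5 blood and immune markers and of 4 epiblast markers stayed at or under 5.71 CPM and 2.59 CPM. The 8 visceral endoderm markers summed to 327 to 455 CPM in normal cells, 506 to 656 CPM with BCS, and in vesicles to 53.02 to 78.2 CPM (serum) and 81.2 to 218 CPM (serum-free). Cubn and Amn made up most of the sum in normal cells and fell in both kinds of vesicle, Cubn standing at 255 to 394 CPM in normal cells and 4.84 to 42.01 CPM in vesicles. In the same list Hnf4a rose, with 7.87 to 9.21 CPM in normal cells and 34.1 to 75.9 CPM in vesicles. Apob also rose, with 0 to 0.179 CPM and 0.188 to 8.26 CPM, while Afp, Apoa1 and Apoa4 were at 0 in normal cells and stood at 0.233 to 30.6, 0 to 42.01 and 0.152 to 26.6 CPM in vesicles. These upper ends were not shared by the serum-free libraries, where each SD exceeded the mean. Mean and SD there were 2.892 and 4.645 CPM (Apob), 10.59 and 17.33 (Afp), 14.13 and 24.15 (Apoa1) and 9.066 and 15.18 (Apoa4). Serum vesicles had means of 3.164, 0.6856, 0.5753 and 0.3131 CPM. The part of these markers in the results was not tested.

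Most replication genes fell in vesicles, and fewer were called in each of the vacuolated groups. A gene is called here when edgeR's quasi-likelihood test gave a Benjamini-Hochberg adjusted p under 0.05 over all 11503 tested genes. In serum vesicles against normal cells 31 of the 42 tested members were lower and 3 higher, and 60.4% of all tested genes were called (31.7% higher and 28.8% lower). The median log2 difference of the members was -0.884, against 0.0642 over all genes. In serum-free vesicles 25 members were lower and 4 higher, where 57.7% of all genes were called (30.2% higher and 27.5% lower), with medians of -0.596 and 0.0347. The share of lower members was thus 73.8% and 59.5% in the vesicles, above the share of lower genes in the whole test, while the share of higher members was below it. Fewer cells in S phase and less of each RNA per cell cannot be told apart in such bulk samples.

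In CHIR99021-vacuolated cells 4 members were lower and 2 higher, where 7.62% of all genes were called (4.49% higher and 3.13% lower). BCS-vacuolated cells had 8 lower and 2 higher members beside 20.7% of all genes (11.2% higher and 9.51% lower). Sorted vacuolated cells had 13 lower and 2 higher members beside 25.9% of all genes (14.4% higher and 11.5% lower). Members' median log2 differences were -0.0571, -0.252 and -0.247, against medians within 0.00568 of 0 for all genes. The summed level of the 43 members was 3039 to 3318 CPM in normal cells, 2828 to 2870 with CHIR99021, 2635 to 2738 with BCS, 2389 to 2629 after sorting, and in vesicles 1413 to 1721 (serum) and 1882 to 2106 (serum-free). No group of vacuolated cells or vesicles overlapped normal cells in this sum, and serum vesicles were the lowest of the 6 groups. Abundant genes weigh most in the sum, so it does not show a fall across the set. With CHIR99021 18 members had log2 differences above 0 and 24 below. The 5 genes of nucleotide supply and uracil removal alone summed to 649 to 694 CPM there, against 834 to 929 CPM in normal cells. All 5 comparisons share the same 3 normal libraries, so they are not independent of each other. Without CHIR99021-vacuolated replicate 1, the 6 calls of that comparison became 3, and they became 11 when only its 2 groups were fitted. In those 2 fits 4.3% and 18.3% of all genes were called.

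**Figure D1:**
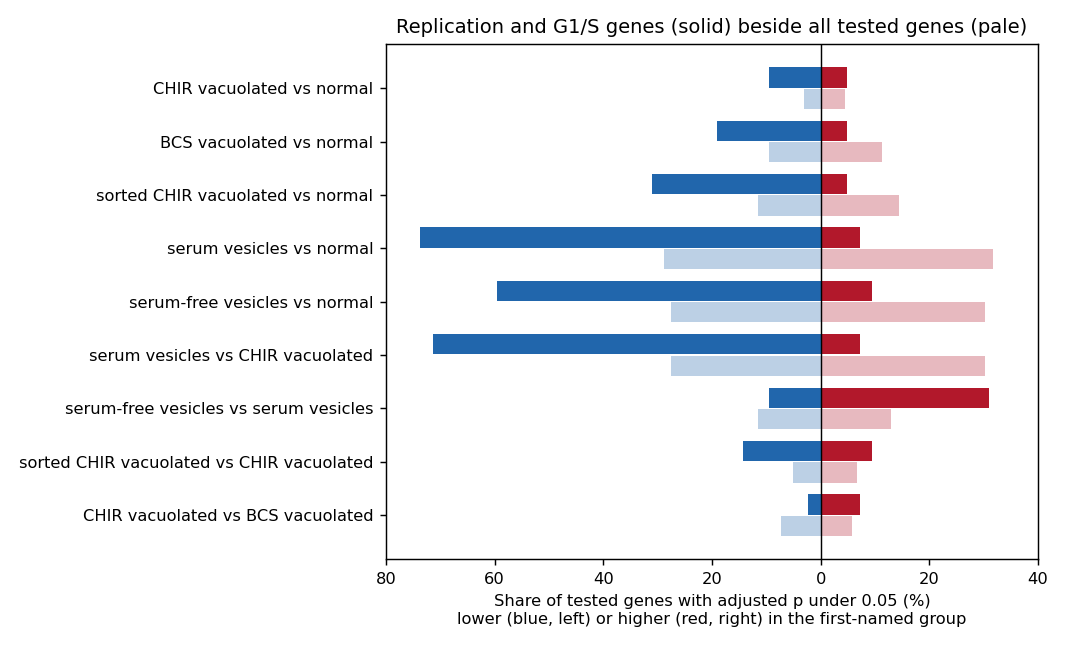
Share of tested genes called lower (blue, to the left) or higher (red, to the right) in each of 9 comparisons, in percent, for the 42 tested replication and G1/S genes (solid bars) and for all 11503 tested genes (pale bars). Lower members reach 73.8% in serum vesicles and 59.5% in serum-free vesicles against normal cells, beside 28.8% and 27.5% of all genes.

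The members differed in how many groups they fell in. Ung and Ccne1 were lower in all 5 comparisons with normal cells, and Cdkn1b was higher in all 5. In all, 23 members including Ung and Ccne1 were lower in both kinds of vesicle, and 14 were lower in serum vesicles and called lower in no vacuolated group. Cdt1, Cdc45, Pola1 and Pole were called in none of the 5. How many of all genes show these patterns across comparisons was not counted. Of all genes 28.8% and 27.5% were lower in serum and serum-free vesicles, and 3.13 to 11.5% in the vacuolated groups. The map of log2 levels by library shows the vesicle columns as mostly blue. Among the red cells of those columns are Cdkn1b, Rb1 and Ccnd2 in both media, Cdkn1a with serum and Mcm6 without serum. Cdkn1a is blue in the serum-free columns.

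**Figure D2:**
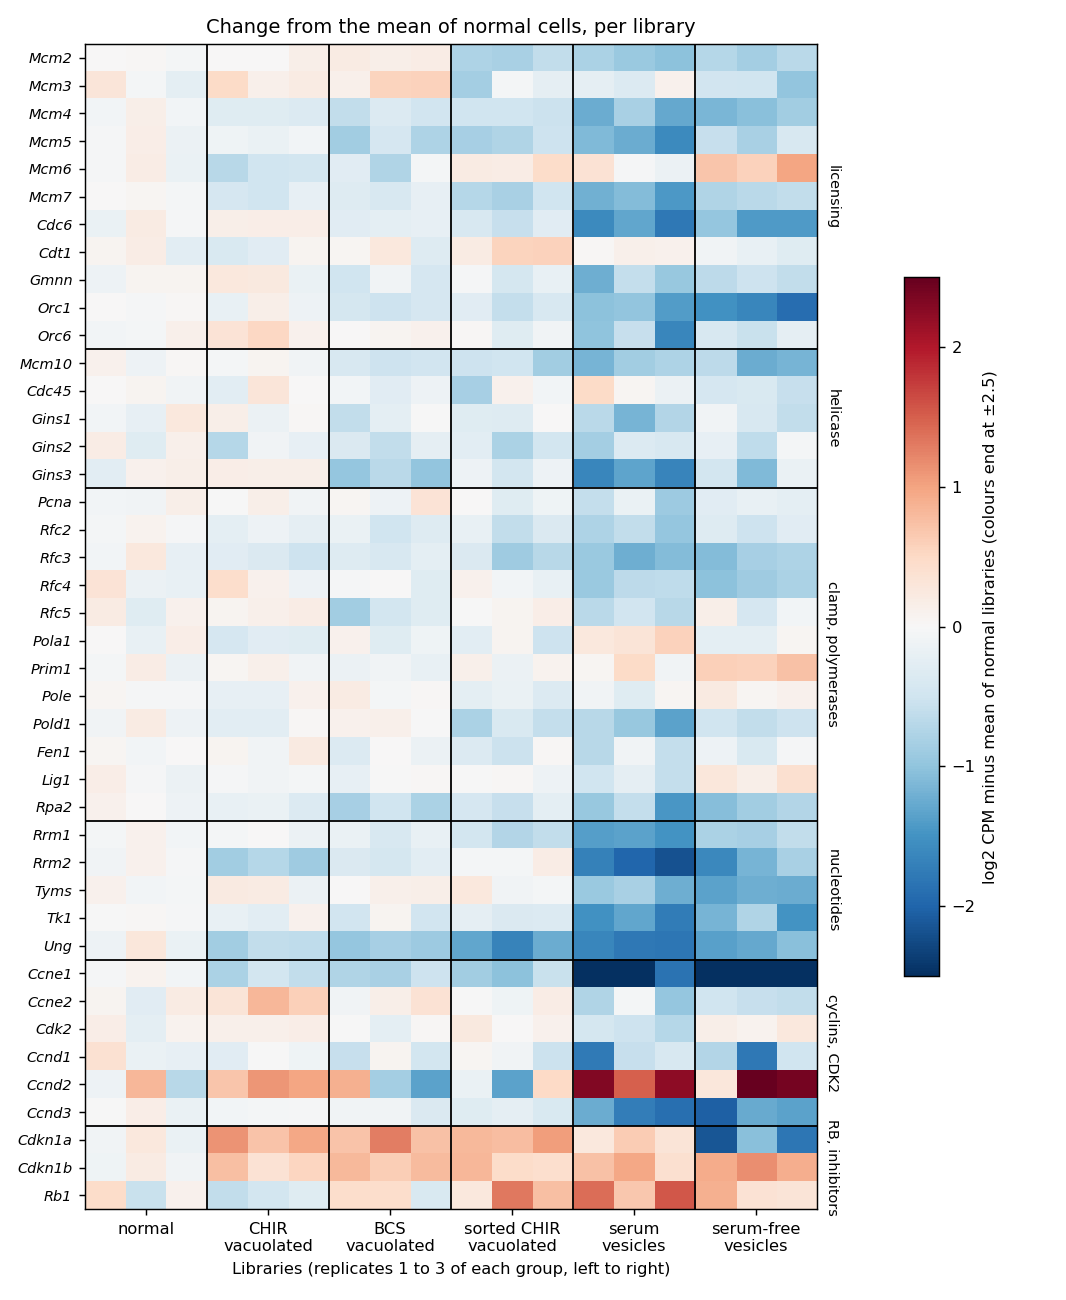
Log2 CPM of each of the 42 tested members (rows, grouped by role) in each of the 18 libraries (columns, replicates 1 to 3 of each group from left to right), minus the mean of the 3 normal libraries, with colours that end at 2.5 on either side. Ccne1 is dark blue in vesicles, Rrm2, Ung and Cdc6 are blue there in paler to darker shades, and Cdkn1b is red in every group beside the normal cells.

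The origin licensing genes comprised the 6 subunits of the MCM ring and the 5 proteins that load it or guard its loading. Of these 11, 8 were lower and none higher in serum vesicles, and 8 were lower and 1 higher in serum-free vesicles, with median log2 differences of -1 and -0.669. That is 72.7% lower in each, beside 28.8% and 27.5% of all genes. Mcm2, Mcm4, Mcm5 and Mcm7 were lower in both. Mcm5, which sits at the gate through which the ring opens onto DNA, stood at 215, 243 and 197 CPM in normal cells, 101, 91.7 and 71.9 in serum vesicles and 145, 124 and 164 in serum-free vesicles. The 3 groups did not overlap, with serum vesicles lowest. Mcm5 fell 2.47-fold with serum (log2 -1.30 ± 0.15 SE, adjusted p = 3.84e-08) and 1.51-fold without it (log2 -0.60 ± 0.14 SE, adjusted p = 0.000911). It also fell with BCS, to 118, 164 and 128 CPM (log2 -0.67 ± 0.14 SE, adjusted p = 0.00156), and after sorting, to 122, 129 and 152 CPM (log2 -0.70 ± 0.14 SE, adjusted p = 0.000842), but stood at 202, 194 and 206 CPM with CHIR99021, within the spread of normal cells in 2 of 3 libraries (adjusted p = 0.699).

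Mcm2, the subunit that also carries histones at the fork, differed from Mcm5 in the BCS group. It stood at 228, 229 and 219 CPM in normal cells, 228, 227 and 248 with CHIR99021 and 259.5, 250.3 and 256 with BCS, and was called in neither. In sorted vacuolated cells it was 132, 128 and 148 CPM, below every library of normal and unsorted vacuolated cells (log2 -0.73 ± 0.11 SE, adjusted p = 2.04e-05). Serum vesicles at 130.1, 118 and 111 CPM and serum-free vesicles at 136, 125 and 142 CPM were as low, 1.88-fold and 1.68-fold below normal cells. Mcm4 fell 2.14-fold and Mcm7 2.35-fold in serum vesicles, and 2.03-fold and 1.60-fold in serum-free ones. Mcm4 was also lower with BCS and after sorting, and Mcm7 after sorting, by 1.40- to 1.59-fold.

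Mcm6 and Mcm3 departed from the other subunits. Mcm6 stood at 59.04, 67.9 and 53.7 CPM in normal cells and 36.7, 42.3 and 43.6 CPM with CHIR99021, where it fell 1.47-fold (log2 -0.56 ± 0.17 SE, adjusted p = 0.0416). That call was lost whichever of the 6 libraries was left out, with an adjusted p of 0.0519 to 0.204. Serum vesicles overlapped normal cells at 77.4, 59.1 and 53.9 CPM (adjusted p = 0.694), whereas serum-free vesicles lay above all other libraries at 97.5, 89.1 and 118 CPM and rose 1.69-fold (log2 0.76 ± 0.17 SE, adjusted p = 0.000374). The ring is built from 1 copy of each subunit, and in serum-free vesicles Mcm6 rose while Mcm2, Mcm3, Mcm4, Mcm5 and Mcm7 fell. Mcm3, a lowly counted subunit here, fell 1.59-fold in serum-free vesicles (log2 -0.67 ± 0.22 SE, adjusted p = 0.0124), and in serum vesicles it stood at 15.4, 14.2 and 19.4 CPM against 22.1, 17.3 and 15.1 in normal cells (adjusted p = 0.534).

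**Figure D3:**
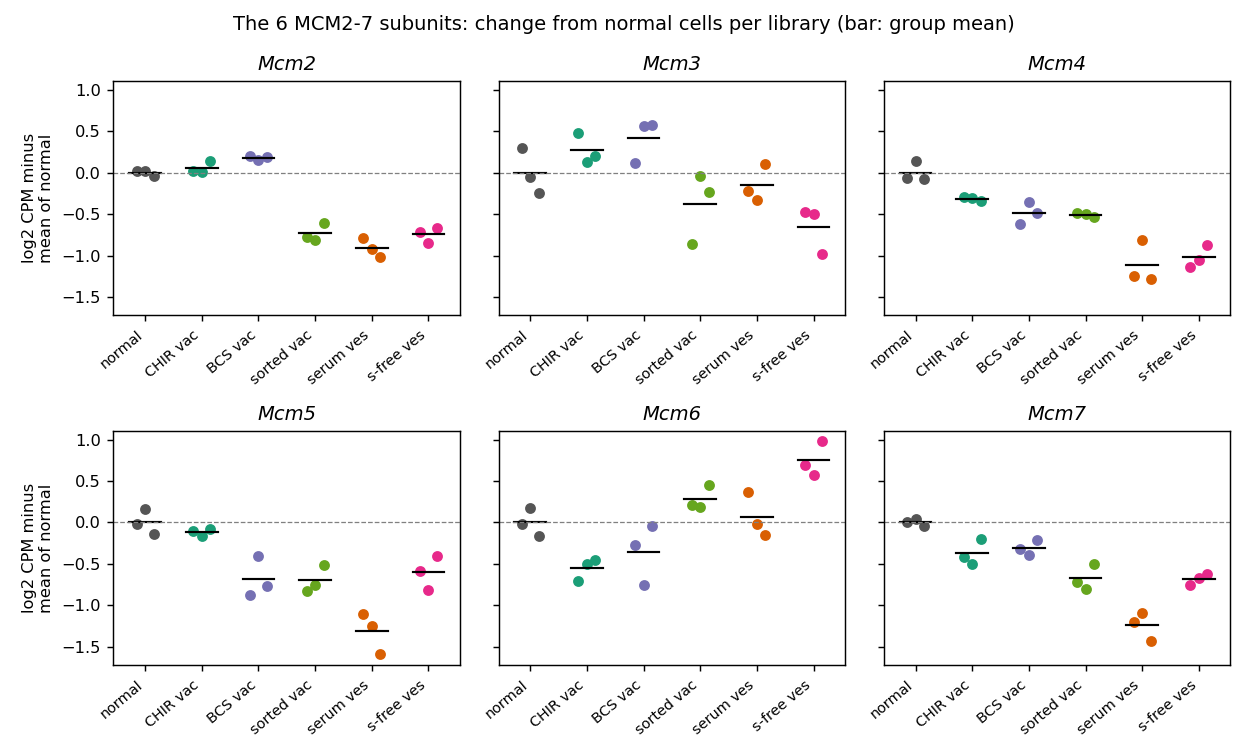
Log2 CPM of the 6 MCM subunits in each library (points) minus the mean of normal cells (dashed line at 0), by group, with the group mean as a bar. In vesicles Mcm2, Mcm4, Mcm5 and Mcm7 lie below the line in every library, and Mcm6 lies above it in the 3 serum-free libraries (log2 0.76).

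Since these genes are known E2F targets, their promoters were read for the letters of E2F sites. RefSeq promoters of build GRCr8, from 250 bases before to 50 after each gene's start, matched 35 of the 44 members. The motifs searched, on both strands, were TTTCCCGC, TTTCGCGC, TTTGCCGC and TTTGGCGC, and overlapping matches on opposite strands were merged. They were found in 17 of the 35 (48.6%), against 716 of 33465 promoters of the same length (2.14%). CCAAT was in 23 of the 35 (65.7%, against 37.5% of all) and the CHR letters TTTGAA in 3 (8.57%, against 18.3%). Members were counted once per gene, and the shares of all are over single promoters, whether or not the gene was tested here. The shares are thus not strictly alike. The windows below, 5′ to 3′ on the gene's strand with the E2F letters in capitals, are shown for 4 MCM subunits, which include both the falling ones and Mcm6, and for Gins3, Tyms and Ung, which fell in both kinds of vesicle. They lie at chr4:122918095-122918128 (minus strand, Mcm2), chr19:13488580-13488631 (plus, Mcm5), chr13:42404460-42404511 (minus, Mcm6), chr12:22163203-22163250 (minus, Mcm7), chr19:9434688-9434735 (minus, Gins3), chr9:120776093-120776140 (minus, Tyms) and chr12:48154046-48154085 (minus, Ung), all upstream of the start.
Mcm2: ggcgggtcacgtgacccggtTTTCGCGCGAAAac
Mcm5: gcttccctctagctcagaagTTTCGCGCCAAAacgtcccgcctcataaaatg
Mcm6: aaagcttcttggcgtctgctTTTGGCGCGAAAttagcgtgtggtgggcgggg
Mcm7: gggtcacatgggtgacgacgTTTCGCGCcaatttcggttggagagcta
Gins3: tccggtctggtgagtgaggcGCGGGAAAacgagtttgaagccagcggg
Tyms: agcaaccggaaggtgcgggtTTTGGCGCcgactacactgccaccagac
Ung: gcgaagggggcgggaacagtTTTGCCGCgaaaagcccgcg

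In these windows Mcm2, Mcm5 and Mcm6 each carry 2 overlapping matches on opposite strands, so the falling Mcm2 and Mcm5 and the rising Mcm6 share this arrangement. Among members with the E2F letters, 11 of 17 were lower and 1 was higher in serum vesicles (median log2 -0.906), and among those without them 14 of 18 were lower and 1 higher (-0.699). In serum-free vesicles 10 of 17 and 9 of 18 were lower and 1 and 2 higher, with medians of -0.599 and -0.439. Members with and without the letters thus both included many that fell. A match describes the sequence and is no measure of binding.

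Both Cdc6 and Orc1, which come to origins ahead of the ring, fell in both kinds of vesicle. Cdc6, the ATPase that joins ORC on DNA to bring in the MCM ring, stood at 86.9, 112 and 95.1 CPM in normal cells, 32.1, 39.7 and 28.1 in serum vesicles and 49.7, 36.3 and 36.6 in serum-free vesicles. Every vesicle library lay below every other library. Cdc6 fell 2.92-fold with serum (log2 -1.55 ± 0.15 SE, adjusted p = 2.02e-09) and 2.41-fold without (log2 -1.27 ± 0.14 SE, adjusted p = 4.55e-08). In sorted vacuolated cells it was 73.9, 65.05 and 79.6 CPM and 1.34-fold lower (adjusted p = 0.0237), a call that weakened to 0.138 without normal replicate 2, 0.0506 without normal replicate 3, 0.0521 without sorted vacuolated replicate 1 and 0.122 without sorted vacuolated replicate 2. With CHIR99021 and BCS alone it stood at 108 to 109.7 and 80.6 to 84.5 CPM and was not called.

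Orc1, the ORC subunit whose level is known to follow the cell cycle, stood at 54.4, 52.8 and 55.5 CPM in normal cells. It was 26.3, 27.1 and 20.3 CPM in serum vesicles and 18.8, 17.4 and 14.3 CPM in serum-free vesicles, falling 2.19-fold (log2 -1.13 ± 0.15 SE, adjusted p = 3.64e-07) and 3.24-fold (log2 -1.70 ± 0.15 SE, adjusted p = 7.44e-10). Unlike most members it was lower without serum than with it (log2 -0.56 ± 0.15 SE, adjusted p = 0.00925), although adjusted p was 0.0649 without serum-free vesicle replicate 3 and 0.0821 when only the vesicle groups were fitted. BCS-vacuolated cells at 39.9, 37.8 and 40.3 CPM and sorted cells at 44.2, 35.9 and 41.3 CPM also lay below normal cells, with 1.38-fold and 1.34-fold falls that were near the threshold (adjusted p = 0.0204 and 0.0269). Leaving out 1 library ended the BCS call in 4 of 6 cases (adjusted p 0.0537 to 0.0683) and the sorted call in 5 of 6 (adjusted p 0.0515 to 0.135), and with no filter on low counts adjusted p was 0.0514 and 0.0856. Orc6 fell 2.000-fold in serum vesicles (adjusted p = 3.22e-05) and stood at 46.9, 42.1 and 52.8 CPM against 59.04, 59.9 and 67.7 in serum-free ones (adjusted p = 0.0514).

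Geminin (Gmnn), which binds CDT1 after S phase begins and blocks a second round of licensing, stood at 41.5, 47.8 and 47.8 CPM in normal cells, 19.5, 29.9 and 23.5 in serum vesicles and 28.8, 31.8 and 29.5 in serum-free vesicles. It fell 1.87-fold (log2 -0.91 ± 0.17 SE, adjusted p = 5.9e-05) and 1.52-fold (log2 -0.60 ± 0.17 SE, adjusted p = 0.00304), and no vesicle library reached a normal one. Its partner Cdt1 was not called in any comparison with normal cells. Cdt1 stood at 12.02, 13.1 and 9.38 CPM in normal cells, 11.6, 12.4 and 12.2 in serum vesicles and 10.7, 9.96 and 9.20 in serum-free vesicles, with log2 differences of 0.08 and -0.20.

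Genes that turn the loaded ring into a moving helicase fell in serum vesicles in 4 of 5 cases and in serum-free vesicles in 2 of 5. That is 80% and 40% lower, beside 28.8% and 27.5% of all genes, and in serum-free vesicles the share called in either direction was below the 57.7% of all genes. Mcm10, which is needed to separate the paired helicases, stood at 15.8, 13.4 and 14.98 CPM in normal cells, 6.39, 7.93 and 8.53 with serum and 9.23, 6.07 and 6.41 without. It fell 1.95-fold (log2 -0.96 ± 0.21 SE, adjusted p = 0.000313) and 2.07-fold (log2 -1.05 ± 0.21 SE, adjusted p = 0.000114). Gins3, a subunit of the GINS complex, fell 2.96-fold in serum vesicles, from 15.1, 19.4 and 20.1 to 5.63, 7.10 and 5.53 CPM (log2 -1.57 ± 0.23 SE, adjusted p = 2.14e-06). In serum-free vesicles it stood at 12.99, 8.26 and 15.96 CPM and overlapped normal cells (adjusted p = 0.0258), and this call was lost at 0.0718 without normal replicate 2, 0.102 without normal replicate 3 and 0.201 without serum-free vesicle replicate 2, at 0.0746 when only these 2 groups were fitted and at 0.0506 with passage as a covariate. BCS-vacuolated cells also had less Gins3, 9.16, 11.2 and 8.93 CPM (log2 -0.89 ± 0.21 SE, adjusted p = 0.00415), while CHIR99021-vacuolated cells stood at 20.3, 20.01 and 20.1 CPM (adjusted p = 0.751).

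The other GINS genes of the set moved less, and Gins4, outside the set, is described below. Gins1 fell 1.86-fold and Gins2 1.46-fold in serum vesicles (adjusted p = 0.00118 and 0.0375), and neither was called in serum-free ones. Cdc45, the remaining partner of the active helicase, had 2.77 to 7.30 CPM over the 18 libraries and was called nowhere. Mcm10 was also 1.56-fold lower in sorted vacuolated cells (adjusted p = 0.0171), where adjusted p became 0.066 without normal replicate 1, 0.0543 without normal replicate 3 and 0.0965 without sorted vacuolated replicate 3, and 0.056 with no filter on low counts.

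At the fork itself, 9 of 12 genes of the clamp, its loader and the polymerases fell in serum vesicles and 5 fell in serum-free ones, with median log2 differences of -0.582 and -0.209. In serum vesicles this was 75% lower beside 28.8% of all genes. In serum-free vesicles it was 41.7% lower beside 27.5% of all genes, but 50% called in either direction beside 57.7% of all genes. The 4 small subunits of the clamp loader, Rfc2 to Rfc5, fell 1.55- to 2.13-fold with serum, and 3 of them fell 1.30- to 1.90-fold without. Rfc3 fell from 41.1, 52 and 37.5 CPM in normal cells to 22.7, 18.2 and 20.3 in serum vesicles and 20.1, 24.3 and 25.04 in serum-free ones (log2 -1.09 ± 0.16 SE, adjusted p = 3.29e-06; log2 -0.90 ± 0.16 SE, adjusted p = 3.51e-05). Pcna, the clamp, stood at 102, 100.5 and 117 CPM in normal cells, 70.1, 94.5 and 56.2 in serum vesicles and 87.6, 93.7 and 89.6 in serum-free vesicles. Both vesicle groups lay below normal cells, and the 1.44-fold fall with serum passed (log2 -0.53 ± 0.15 SE, adjusted p = 0.00437) while the difference without serum did not (log2 -0.24 ± 0.15 SE, adjusted p = 0.177).

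The polymerases split. Pold1, the catalytic subunit of the polymerase that copies the lagging strand, fell 1.96-fold with serum, from 49.5, 60.6 and 48.4 to 32.6, 27.1 and 20.5 CPM (log2 -0.97 ± 0.16 SE, adjusted p = 9.51e-06), and 1.47-fold without it, to 37.3, 34.1 and 36.7 CPM (log2 -0.55 ± 0.15 SE, adjusted p = 0.00335). Pole, its leading-strand counterpart, stood at 60.4 to 63.5 CPM in normal cells and 49.7 to 71.5 CPM in vesicles and was called in none of the comparisons. Prim1, the primase that starts each fragment, rose 1.55-fold in serum-free vesicles, where 67.03, 66.4 and 74.1 CPM lay above the 42.9, 50.9 and 40.4 CPM of normal cells (log2 0.63 ± 0.14 SE, adjusted p = 0.000523). It was not called with serum (46.1, 62.5 and 41.7 CPM, adjusted p = 0.309). Pola1, its polymerase partner, had log2 differences of 0.38 with serum and -0.14 without, neither called.

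Fen1 and Lig1, which trim and seal Okazaki fragments, fell 1.35-fold and 1.35-fold in serum vesicles (adjusted p = 0.0384 and 0.0184). Neither was called in serum-free vesicles. Rpa2, a subunit of the single-strand binding protein RPA, fell 1.92-fold with serum and 1.85-fold without (adjusted p = 5.23e-05 and 0.000102), and it was also 1.62-fold lower with BCS.

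All 5 genes of nucleotide supply and uracil removal fell in both kinds of vesicle, with median log2 differences of -1.51 with serum and -1.15 without. Of all genes 28.8% and 27.5% were lower in these comparisons. Ribonucleotide reductase makes the building blocks of DNA from a large subunit, Rrm1, and a small one, Rrm2. Rrm1 stood at 254, 285 and 253 CPM in normal cells, 101, 104 and 93.6 in serum vesicles and 152, 148 and 172 in serum-free vesicles, 3 groups that did not overlap. It fell 2.65-fold (log2 -1.41 ± 0.12 SE, adjusted p = 2.2e-10) and 1.68-fold (log2 -0.75 ± 0.11 SE, adjusted p = 4.47e-06).

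Rrm2 was also lower in CHIR99021-vacuolated cells. It stood at 349.8, 402 and 366 CPM in normal cells and 204, 226 and 202 CPM in CHIR99021-vacuolated cells, with a 1.77-fold fall without overlap (log2 -0.82 ± 0.15 SE, adjusted p = 0.000784). BCS-vacuolated cells were between them at 290.4, 275 and 308 CPM (adjusted p = 0.0918), and sorted vacuolated cells were back in the range of normal cells or above it at 359, 358 and 421 CPM (adjusted p = 0.919). Serum vesicles had 115, 94.5 and 82.1 CPM and serum-free vesicles 122, 166 and 213 CPM. These were falls of 3.83-fold (log2 -1.94 ± 0.16 SE, adjusted p = 1.48e-10) and 2.23-fold (log2 -1.15 ± 0.15 SE, adjusted p = 5.09e-07).

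Tyms and Tk1 provide thymidine nucleotides, the first by synthesis and the second by salvage. Tyms stood at 77.2, 67.7 and 69.3 CPM in normal cells, 37.3, 40.6 and 30.4 in serum vesicles and 28.1, 30.2 and 30.2 in serum-free vesicles, and fell 1.97-fold (log2 -0.98 ± 0.14 SE, adjusted p = 1.55e-06) and 2.42-fold (log2 -1.27 ± 0.14 SE, adjusted p = 3.06e-08). Tk1 stood at 99.4, 103 and 98.5, 34.99, 40.6 and 29.5 and 44.4, 59.01 and 35.2 CPM in the same groups, and fell 2.84-fold (log2 -1.51 ± 0.17 SE, adjusted p = 6.89e-08) and 2.17-fold (log2 -1.12 ± 0.17 SE, adjusted p = 4.82e-06). Neither was called in any vacuolated group, where Tyms stood at 63.96 to 85.2 CPM and Tk1 at 71.3 to 107 CPM.

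Ung, the glycosylase that removes uracil from newly made DNA, was lower than normal in each of the other 5 groups. It stood at 53.3, 71.6 and 52.4 CPM in normal cells, 31.7, 38.3 and 37.3 with CHIR99021, 29.9, 32.7 and 31.1 with BCS and 23.7, 18.2 and 24.6 after sorting. Vesicles had 18.7, 16.7 and 16.6 CPM with serum and 22.6, 23.8 and 28.1 CPM without. No library of another group reached a normal one. The falls were 1.65-fold (log2 -0.72 ± 0.15 SE, adjusted p = 0.00294), 1.89-fold (log2 -0.92 ± 0.15 SE, adjusted p = 0.000142) and 2.65-fold (log2 -1.41 ± 0.15 SE, adjusted p = 4.27e-07) in vacuolated cells, and 3.40-fold (log2 -1.76 ± 0.16 SE, adjusted p = 1.33e-09) and 2.37-fold (log2 -1.24 ± 0.15 SE, adjusted p = 2.39e-07) in vesicles.

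Among cyclins, Ccne1 (cyclin E1, the partner of CDK2 at S phase entry) had the largest fall of any member in both kinds of vesicle. It stood at 66.4, 71.4 and 64.6 CPM in normal cells, 38.97, 48.98 and 43.7 with CHIR99021, 39.9, 38.5 and 46.7 with BCS and 36.9, 32.8 and 45.9 after sorting. In serum vesicles it was 10.9, 11.1 and 18.4 CPM and in serum-free vesicles 9.23, 8.74 and 9.32 CPM. Normal cells, vacuolated cells and vesicles thus formed 3 ranges that did not overlap. Ccne1 fell 5.10-fold (log2 -2.35 ± 0.18 SE, adjusted p = 6.45e-11) and 7.41-fold (log2 -2.89 ± 0.18 SE, adjusted p = 2.09e-12) in vesicles. The falls in vacuolated cells were 1.54-fold with CHIR99021 (adjusted p = 0.0153), 1.62-fold with BCS (adjusted p = 0.00337) and 1.75-fold after sorting (adjusted p = 0.000664). With CHIR99021 the adjusted p rose to 0.075 without normal replicate 2, 0.111 without CHIR99021-vacuolated replicate 1 and 0.0579 without CHIR99021-vacuolated replicate 3.

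Cyclin E2 followed less closely. Ccne2 stood at 25.5, 19.8 and 28 CPM in normal cells, 14.2, 23.2 and 12.2 in serum vesicles and 17.1, 16.03 and 15.6 in serum-free vesicles, and the serum group overlapped normal cells. It fell 1.46-fold (adjusted p = 0.0247) and 1.51-fold (adjusted p = 0.0148). Adjusted p was 0.061 without normal replicate 1, 0.113 without normal replicate 3, 0.112 without serum vesicle replicate 1 and 0.125 without serum vesicle replicate 3 in the serum comparison, and 0.084 without normal replicate 3 in the serum-free one. The serum call was also lost with unstranded counts (adjusted p = 0.142) and when only these 2 groups were fitted (0.0513). With CHIR99021 Ccne2 stood at 30.4, 43.1 and 36.6 CPM, above every normal library but not called (adjusted p = 0.0689).

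The D cyclins carry growth signals to RB. Ccnd3 stood at 123, 138 and 109 CPM in normal cells, 52.2, 36.7 and 32.96 in serum vesicles and 29.8, 51.2 and 48.2 in serum-free vesicles, and every vesicle library lay below every other library. It fell 3.02-fold (log2 -1.60 ± 0.17 SE, adjusted p = 2.03e-08) and 2.85-fold (log2 -1.51 ± 0.17 SE, adjusted p = 4.85e-08). In vacuolated cells it stayed between 94.4 and 120.0 CPM and was not called.

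Ccnd1, a known WNT target, was low throughout, at 14.5, 9.79 and 9.54 CPM in normal cells, 3.04, 7.38 and 8.30 in serum vesicles and 6.59, 3.04 and 7.80 in serum-free vesicles. It was lower in both (log2 -0.88 ± 0.33 SE, adjusted p = 0.0255; log2 -0.96 ± 0.33 SE, adjusted p = 0.0143), and was not called in cells vacuolated with the GSK3 inhibitor. Adjusted p became 0.13 without normal replicate 1 and 0.169 without serum vesicle replicate 1 with serum, and 0.0897 without normal replicate 1 and 0.103 without serum-free vesicle replicate 2 without serum. Ccnd2 went the other way from very few counts, 0.359, 0.959 and 0.151 CPM in normal cells against 3.19, 1.67 and 3 with serum and 0.565, 8.01 and 3.38 without, which rest on 8, 46 and 98 counts. The fitted log2 differences were 2.43 (adjusted p = 0.029) and 3.09 (adjusted p = 0.00503), and the serum-free group overlapped normal cells. These calls did not hold at 0.0854 without normal replicate 1, 0.117 without normal replicate 3, 0.0793 without serum vesicle replicate 1 and 0.0609 without serum vesicle replicate 3 in the first comparison, and 0.0555 without serum-free vesicle replicate 2 in the second.

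Cdk2, the kinase that cyclin E activates, stood at 38.9, 28.97 and 36.5 CPM in normal cells, 25.2, 23.9 and 20.98 in serum vesicles and 38.4, 36.8 and 41.4 in serum-free vesicles. It fell 1.48-fold with serum (log2 -0.57 ± 0.14 SE, adjusted p = 0.00148), below all normal libraries, and overlapped them without serum (adjusted p = 0.345).

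**Figure D4:**
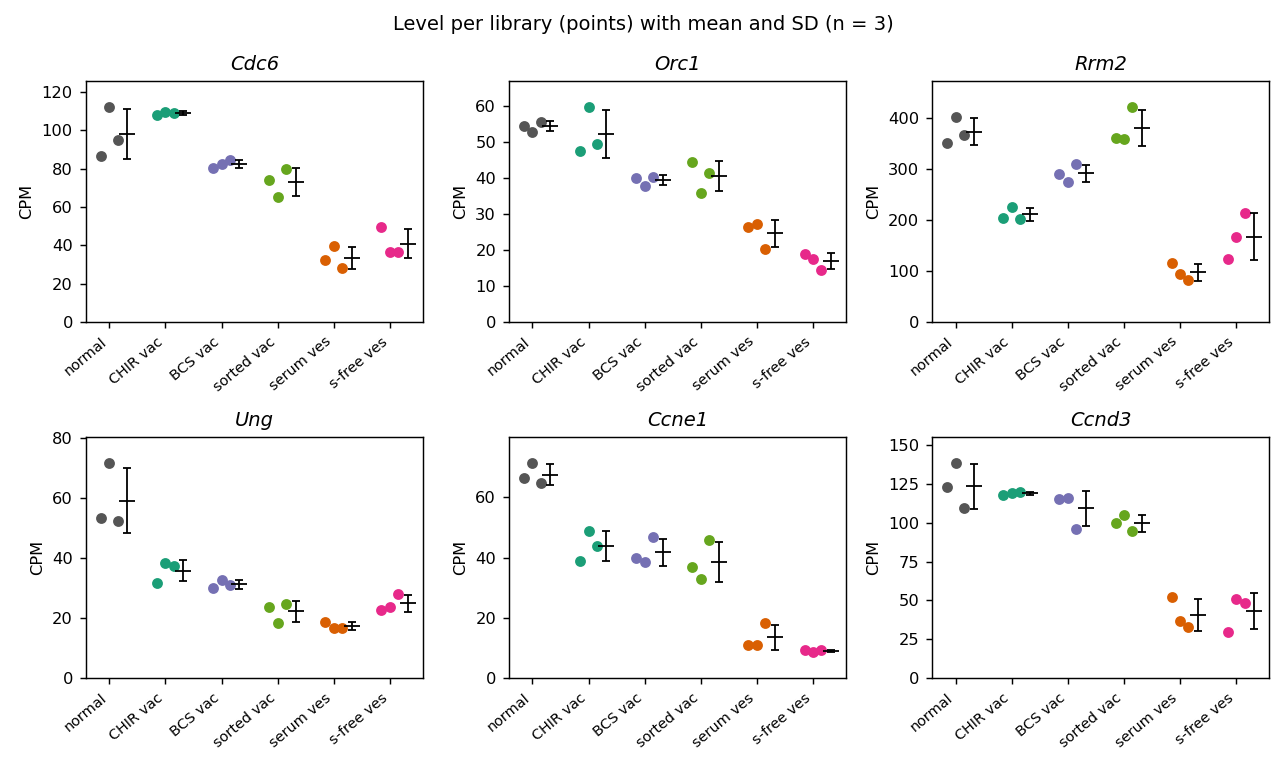
CPM of Cdc6, Orc1, Rrm2, Ung, Ccne1 and Ccnd3 in each library (points) with the mean and SD of each group of 3 (bars), on linear axes that start at 0. Vesicle libraries lie below normal ones in all 6 panels. In the Rrm2 panel sorted vacuolated cells (358 to 421 CPM) stand with normal cells (349.8 to 402 CPM), while unsorted CHIR99021-vacuolated ones (202 to 226 CPM) do not.

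Of the 2 inhibitors Cdkn1b was higher than in normal cells in each of the other 5 groups, and Cdkn1a was higher in vacuolated cells and lower in serum-free vesicles. Cdkn1b, which encodes p27, an inhibitor of cyclin E and CDK2, stood at 27.8, 34.5 and 28.1 CPM in normal cells, 50.9, 38.5 and 43.5 with CHIR99021, 52.8, 46.03 and 51.9 with BCS and 53.7, 41.5 and 40.2 after sorting. It was 49.9, 58.9 and 39.9 CPM in serum vesicles and 57.4, 67.1 and 56.7 CPM in serum-free vesicles. No library of another group was as low as a normal one. Cdkn1b rose 1.67-fold with BCS (log2 0.74 ± 0.16 SE, adjusted p = 0.00185), 1.65-fold in serum vesicles (log2 0.73 ± 0.16 SE, adjusted p = 0.000394) and 2.01-fold in serum-free vesicles (log2 1.005 ± 0.16 SE, adjusted p = 7.63e-06). The rises with CHIR99021 (1.47-fold, adjusted p = 0.0299) and after sorting (1.495-fold, adjusted p = 0.00841) were less stable. Adjusted p in the first was 0.123 without normal replicate 1, 0.126 without normal replicate 3, 0.19 without CHIR99021-vacuolated replicate 1 and 0.0707 without CHIR99021-vacuolated replicate 3, and in the second 0.0637 without sorted vacuolated replicate 1.

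Cdkn1a, which encodes p21 and is a target of p53, rose in vacuolated cells and fell in serum-free vesicles. It stood at 36.6, 46.8 and 35.1 CPM in normal cells, 85.7, 64.3 and 76.8 with CHIR99021, 64.6, 95.2 and 65.7 with BCS and 69.02, 67.2 and 81.2 after sorting. In serum vesicles it was 47.01, 60.7 and 49.1 CPM, and in serum-free vesicles 8.66, 18.9 and 10.9 CPM. The vacuolated groups lay above normal cells without overlap, and serum-free vesicles lay below all 15 other libraries. The rises were 1.92-fold (log2 0.94 ± 0.20 SE, adjusted p = 0.00465), 1.91-fold (log2 0.93 ± 0.20 SE, adjusted p = 0.00245) and 1.84-fold (log2 0.88 ± 0.20 SE, adjusted p = 0.00285), and the fall was 3.01-fold (log2 -1.59 ± 0.22 SE, adjusted p = 2.92e-06). In serum vesicles the difference was not called (log2 0.41 ± 0.21 SE, adjusted p = 0.092).

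Other p53 targets were counted beside Cdkn1a from a list of 24 symbols without members of the set, 21 of them tested. With CHIR99021 3 were higher and none lower, with BCS 4 and 1, and after sorting 8 and 0. That is 14.3%, 19% and 38.1% higher, beside 4.49%, 11.2% and 14.4% of all genes. With BCS the 23.8% called in either direction was near the 20.7% of all genes. In serum vesicles 10 were higher and 5 lower, and in serum-free vesicles 5 were higher and 8 lower. The 61.9% called in serum-free vesicles was near the 57.7% of all genes, with 23.8% higher beside 30.2%, and in serum vesicles 47.6% were higher beside 31.7% of all genes. Mdm2, which targets p53 for degradation and is induced by it, stood at 137 to 171 CPM in normal cells, 201 to 232 with CHIR99021, 121 to 174 CPM in serum vesicles and 69.3 to 76.8 CPM in the serum-free libraries. It rose with CHIR99021 (log2 0.53 ± 0.14 SE, adjusted p = 0.0189) and after sorting (log2 0.69 ± 0.14 SE, adjusted p = 0.000788) and fell in serum-free vesicles (log2 -1.01 ± 0.14 SE, adjusted p = 1.9e-06). Ccng1, another p53 target, stood at 411 to 457 CPM in normal cells and 139.5 to 183 CPM in serum-free vesicles (log2 -1.40 ± 0.19 SE, adjusted p = 2.46e-06), and was not called in vacuolated cells.

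**Figure D5:**
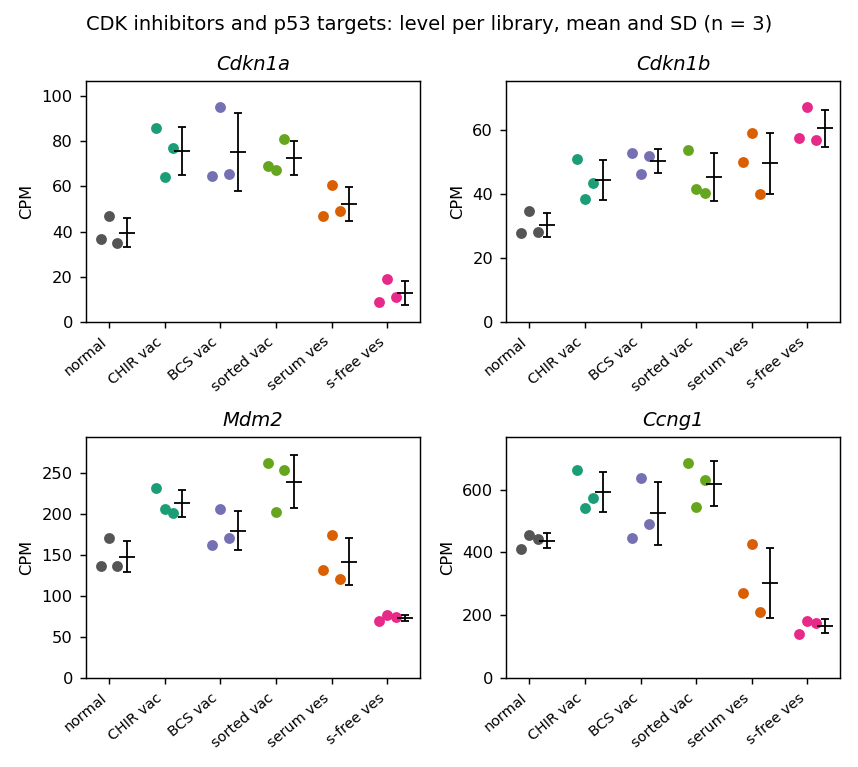
CPM of the inhibitors Cdkn1a and Cdkn1b and of the p53 targets Mdm2 and Ccng1 in each library (points) with the mean and SD of each group of 3 (bars), on linear axes that start at 0. Cdkn1a, Mdm2 and Ccng1 are lowest in serum-free vesicles, where Cdkn1a stands at 8.66 to 18.9 CPM, whereas Cdkn1b has its highest mean there, at 56.7 to 67.1 CPM.

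Rb1, the retinoblastoma protein that restrains E2F, had few counts. It stood at 4.13, 1.92 and 3.18 CPM in normal cells and 8.21, 4.87 and 9.22 CPM in serum vesicles, where it rose 2.37-fold without overlap (log2 1.24 ± 0.36 SE, adjusted p = 0.00464). In serum-free vesicles it was 5.65, 3.88 and 3.73 CPM and not called (adjusted p = 0.265).

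Serum and serum-free vesicles were compared directly, since their shared comparison with normal cells does not test the difference. Of the 42 members 13 were higher and 4 lower without serum, where 24.4% of all genes were called (12.9% higher and 11.5% lower), and the median log2 difference was 0.266 for members and 0.0168 for all genes. The count was 10 without serum vesicle replicate 3, the library with the fewest counts, 11 without serum-free vesicle replicate 3 and 8 when only the vesicle groups were fitted. Of all genes 14.6%, 16.3% and 11.4% were called in those fits. Higher members came from several steps and included Mcm5 (log2 0.70 ± 0.15 SE, adjusted p = 0.00109), Mcm6 (log2 0.68 ± 0.16 SE, adjusted p = 0.00436), Gins3 (log2 1.01 ± 0.23 SE, adjusted p = 0.00257), Rrm1 (log2 0.66 ± 0.12 SE, adjusted p = 0.000236) and Rrm2 (log2 0.78 ± 0.15 SE, adjusted p = 0.000681). Mcm7, Orc6, Rfc2, Rfc5, Prim1, Lig1, Ung and Cdk2 were the others, with rises of 1.32- to 1.65-fold. For Ung, adjusted p went from 0.0229 to 0.0526 without serum vesicle replicate 2, 0.0672 without serum vesicle replicate 3 and 0.11 without serum-free vesicle replicate 3. When only the vesicle groups were fitted, the calls of Gins3 (adjusted p = 0.0554) and Ung (adjusted p = 0.114) were lost.

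The 4 members lower without serum were Cdkn1a, Orc1, Pola1 and Ccne1. Cdkn1a had the largest of these differences, 4.002-fold (log2 -2.001 ± 0.22 SE, adjusted p = 3.32e-06), with no overlap between 47.01, 60.7 and 49.1 and 8.66, 18.9 and 10.9 CPM. Of the 21 other p53 targets 12 were lower and none higher without serum, or 57.1% lower beside 11.5% of all genes. Among the lower ones were Eda2r (log2 -2.07 ± 0.20 SE, adjusted p = 3.8e-07), Aen (log2 -1.07 ± 0.15 SE, adjusted p = 1.87e-05) and Mdm2 (log2 -0.96 ± 0.14 SE, adjusted p = 4.95e-05). Ccne1 was 1.45-fold lower (adjusted p = 0.0465), but only barely, since adjusted p was 0.339 without serum vesicle replicate 3, 0.0726 without serum-free vesicle replicate 1, 0.122 without serum-free vesicle replicate 2 and 0.0933 without serum-free vesicle replicate 3. It was also 0.169 with only the vesicle groups, 0.0786 with no filter on low counts and 0.0505 with unstranded counts.

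Some members differed between sorted and unsorted cells of the CHIR99021 treatment. Sorted against unsorted CHIR99021-vacuolated cells, 4 members were higher and 6 lower, beside 11.7% of all genes (6.69% higher and 5.05% lower). The count of 10 became 16 when only these 2 groups were fitted, beside 24.6% of all genes. Rrm2 rose 1.80-fold (log2 0.85 ± 0.15 SE, adjusted p = 0.000457) and Mcm6 1.80-fold (log2 0.85 ± 0.17 SE, adjusted p = 0.00144). Mcm2 fell 1.72-fold (log2 -0.78 ± 0.11 SE, adjusted p = 2.07e-05), Ung 1.61-fold, Mcm5 1.49-fold, Cdc6 1.495-fold and Rrm1 1.45-fold, so that the 2 subunits of ribonucleotide reductase moved apart. Cdt1 and Rb1 were also called higher and Mcm10 lower, each with an adjusted p over 0.05 in at least 3 of the 6 fits that left out a library. Their adjusted p ranged over 0.115 to 0.144, 0.0547 to 0.111 and 0.0622 to 0.173 in those fits. Adjusted p was also 0.125 for Rb1 with unstranded counts and 0.107 for Mcm10 with no filter on low counts. The sorted libraries also held the higher mitochondrial share given above, whose part was not tested.

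The 2 treatments that gave vacuolated cells were compared directly, and 9.52% of the tested members were called beside 13.2% of all genes. Against BCS, CHIR99021 left Mcm5 1.47-fold, Gins3 2.05-fold and Rfc5 1.57-fold higher and Rrm2 1.38-fold lower. That is 7.14% higher and 2.38% lower, beside 5.83% and 7.40% of all genes. Gins3 had the clearest of these differences (log2 1.04 ± 0.21 SE, adjusted p = 0.0016). The count of 4 became 1 without BCS-vacuolated replicate 1 and 2 without BCS-vacuolated replicate 3, and 7 with a minimum count of 30 or with passage as a covariate. Of all genes 6.3%, 8.4%, 16.2% and 14% were called in those fits. Mcm5 was lost without BCS-vacuolated replicate 1 (adjusted p = 0.0689) and without BCS-vacuolated replicate 3 (0.0526). Rrm2 was lost in 5 of the 6 fits that left out a library (adjusted p 0.0707 to 0.126).

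Serum vesicles were also set against CHIR99021-vacuolated cells, which were also grown with CHIR99021. Here 30 members were lower and 3 higher, beside 58.0% of all genes (30.3% higher and 27.6% lower), with a median log2 difference of -0.766 against 0.0520 for all genes. The higher ones were Mcm6 (log2 0.64 ± 0.17 SE, adjusted p = 0.00229), Pola1 (log2 0.73 ± 0.17 SE, adjusted p = 0.000959) and Rb1 (log2 1.82 ± 0.37 SE, adjusted p = 0.000202). Cdc6 fell 3.25-fold, Ccne1 3.31-fold, Gins3 3.27-fold and Ccnd3 2.91-fold. Cdkn1a was 1.45-fold lower than in vacuolated cells (adjusted p = 0.028), with adjusted p of 0.109 without CHIR99021-vacuolated replicate 1, 0.0609 without CHIR99021-vacuolated replicate 3, 0.0974 without serum vesicle replicate 1 and 0.0788 without serum vesicle replicate 3.

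Replication and G1/S genes outside the set were counted from other lists. Of 39 other tested replication genes 15 were lower and 5 higher in serum vesicles, and 17 and 7 in serum-free ones. The shares called, 51.3% and 61.5%, were near those of all genes, with 38.5% and 43.6% lower beside 28.8% and 27.5%. Chaf1b, which delivers histones to new DNA, fell in both (log2 -1.64 ± 0.15 SE, adjusted p = 2.06e-09; log2 -1.73 ± 0.15 SE, adjusted p = 7.93e-10), as did Rpa1, the large subunit of RPA (log2 -1.20 ± 0.15 SE, adjusted p = 3.34e-07; log2 -1.18 ± 0.15 SE, adjusted p = 4.93e-07), and Gins4, the remaining GINS subunit (log2 -1.72 ± 0.19 SE, adjusted p = 2.97e-08; log2 -1.14 ± 0.18 SE, adjusted p = 8.93e-06). Timeless, a fork protection factor, rose in serum-free vesicles (log2 1.18 ± 0.15 SE, adjusted p = 2.58e-07) and with BCS (log2 0.88 ± 0.15 SE, adjusted p = 0.000153). Of 19 other genes of nucleotide synthesis and S phase chromatin 13 were lower and 3 higher with serum, and 11 and 4 without. That is 68.4% and 57.9% lower, beside 28.8% and 27.5% of all genes. Ctps1, which makes cytidine nucleotides, fell in both (log2 -2.03 ± 0.18 SE, adjusted p = 7.37e-10; log2 -2.70 ± 0.19 SE, adjusted p = 8.93e-12). Uhrf1, which guides methylation of new DNA, instead rose in CHIR99021-vacuolated cells, from 52.8, 28.6 and 38.3 to 125, 122 and 138 CPM (log2 1.68 ± 0.18 SE, adjusted p = 8.47e-07), and in serum-free vesicles (log2 1.43 ± 0.18 SE, adjusted p = 2.5e-07).

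Of 35 other G1/S regulators 15 were lower and 9 higher in serum vesicles, and 15 and 10 in serum-free vesicles. The 25.7% and 28.6% higher were close to the shares of all genes (31.7% and 30.2%), and 42.9% were lower in each beside 28.8% and 27.5%. Ccna2, the cyclin A of S phase, stood at 177, 187 and 177 CPM in normal cells and 53.5, 71.5 and 45.9 CPM in serum vesicles (log2 -1.66 ± 0.15 SE, adjusted p = 1e-09). Mycn, a driver of cell growth, fell in both (log2 -2.16 ± 0.16 SE, adjusted p = 6.45e-11; log2 -1.34 ± 0.16 SE, adjusted p = 7.64e-08), and Tfdp1, the usual dimer partner of E2F factors, fell as well (log2 -1.42 ± 0.15 SE, adjusted p = 1.15e-08; log2 -1.28 ± 0.15 SE, adjusted p = 5.56e-08). Btg1, an antiproliferative gene, rose from 23.5, 30.1 and 19.2 CPM to 118, 119.8 and 110.2 with serum and 151, 173 and 153 without (log2 2.26 ± 0.16 SE, adjusted p = 1.25e-11; log2 2.72 ± 0.16 SE, adjusted p = 4.5e-13), without overlap.

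Mitotic genes, a separate measure of dividing cells, were tested as 15 markers. In serum vesicles 13 were lower and 1 higher, and in serum-free vesicles 11 and 1. That is 86.7% and 73.3% lower, beside 28.8% and 27.5% of all genes. In the vacuolated groups none of the 15 was lower, and 1, 2 and 5 were higher with CHIR99021, with BCS and after sorting. That is 6.67%, 13.3% and 33.3% higher, beside 4.49%, 11.2% and 14.4% of all genes, so the first 2 shares were near those of all genes. Of the 42 tested members of the replication set 4, 8 and 13 were lower there. Those were 9.52%, 19% and 31%, beside 3.13%, 9.51% and 11.5% of all genes. The summed level of the mitotic markers was 1479 to 1539 CPM in normal cells, 1790 to 1873 CPM after sorting and 781 to 902 CPM in serum vesicles. Ccnb1, the mitotic cyclin, fell in both kinds of vesicle (log2 -1.70 ± 0.15 SE, adjusted p = 9.61e-10; log2 -1.05 ± 0.15 SE, adjusted p = 1.68e-06), and Top2a, which untangles replicated DNA, was the 1 marker that rose in each (log2 0.62 ± 0.13 SE, adjusted p = 0.000334; log2 0.86 ± 0.13 SE, adjusted p = 7.11e-06).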

How the data were processed

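RNA was sequenced from 18 cultures in 6 groups of 3. Per the labels' protocols, total RNA was depleted of ribosomal RNA and made into directional libraries read as paired ends. Per the submitters' processing notes, bcl2fastq, Trimmomatic 0.38, STAR 2.6.1 and the genome build rn6 were used. The deposited files give raw counts per gene, unstranded and per strand. The strand with nearly all counts was used, and the other held 1.70 to 2.85%.

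The analysis used edgeR 4.0.16 in R 4.3.3. After filterByExpr (minimum count 10) and TMM scaling, a single model with a mean for each of the 6 groups, which leaves 12 residual degrees of freedom, was fitted by robust quasi-likelihood. In 9 comparisons p-values were adjusted by Benjamini and Hochberg over 11503 genes, with a threshold of 0.05. CPM use TMM-scaled library sizes, and the SE is the log2 difference divided by the root of F. Log2 CPM in figures have a prior count of 2. Replicates differed by more than sampling noise. The code was tested on simulated data.

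The members and all gene lists were chosen with earlier results of these data known. Per-library values were given for a set of 23 members and for the 2 members of each role group with the smallest adjusted p against normal cells. From other lists, at most 4 genes with the smallest adjusted p in a comparison were named, with Mdm2 and Ccng1. Top2a, named genes of the cell type lists (such as Pou5f1, Cdx2, Hnf4a and Cubn) and other members' values outside these rules were given after their values were seen. Alternatives were DESeq2 1.42.0 (size factors, and its Wald test), other count filters, unstranded counts, library sizes without the most abundant genes, passage as a covariate, fits of the 2 groups alone, a replicate block, and leaving out each library. Promoter sequences are RefSeq's, of build GRCr8.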

Additional observations from a re-analysis of the deposited data

Results flagged for a closer look

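In 4 members the 2 kinds of vesicle differed from normal cells in opposite directions, and the direct comparison of the vesicles passed edgeR's quasi-likelihood test. Cdkn1a (p21) was lower in serum-free than in serum vesicles, with a log2 difference of -2.001 ± 0.22 SE and 8.66 to 18.9 CPM in the 3 serum-free and 47.0 to 60.7 CPM in the 3 serum libraries. Cdk2 was higher without serum by 0.73 ± 0.14 SE on the log2 scale, at 36.8 to 41.4 against 21.0 to 25.3 CPM. Lig1, the ligase of Okazaki fragments, was higher without serum by 0.71 ± 0.15 SE, at 26.0 to 31.0 against 15.4 to 20.04 CPM. Pola1 was lower without serum, with a log2 difference of -0.52 ± 0.17 SE, at 19.4 to 24.0 against 27.7 to 34.6 CPM. None of the 4 overlapped between the media. For Pola1 neither difference from normal cells was itself called, and for the other 3 only 1 of the 2 was.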

How the results depend on the processing

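The number of members called stayed within 1.5 times of the reported one under each alternative in the comparisons of BCS-vacuolated cells, sorted vacuolated cells and both kinds of vesicle with normal cells, and of serum vesicles with CHIR99021-vacuolated cells. Leaving out 1 library gave 8 to 11, 11 to 14, 28 to 34, 25 to 29 and 30 to 34 calls there. The shares of all genes called were then 10.7 to 22.2%, 16.9 to 21.1%, 53.9 to 59.2%, 51.1 to 53.8% and 50.6 to 56.4%. In CHIR99021-vacuolated against normal cells the 6 calls became 11 when only these 2 groups were fitted and 3 to 5 when 1 library was left out. The share of all genes called went from 7.62% to 18.3% and to 4.3 to 5.35%. Serum-free against serum vesicles had 17 calls, 8 when only these groups were fitted and 10 to 20 with 1 library left out. These stood beside 24.4%, 11.4% and 14.6 to 25.7% of all genes. Sorted against unsorted CHIR99021-vacuolated cells had 10 calls, 16 with only these groups and 7 to 9 with 1 library left out. These stood beside 11.7%, 24.6% and 5.79 to 8.13% of all genes. CHIR99021 against BCS had 4 calls, 7 with a minimum count of 30, 7 with passage as a covariate and 1 to 6 with 1 library left out. These stood beside 13.2%, 16.2%, 14% and 6.3 to 16.6% of all genes. The causes were not tested. No direction of a named gene that was called was reversed. Over 26 named members and 9 comparisons, 94 alternative values lost a call and 39 gained one. The other 3359 kept their status, a number that mixes calls that held with differences that were called in neither fit. Shallow libraries limit genes of a few CPM, such as Ccnd2, Rb1, Cdc45 and E2f2.

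Replicate numbers did not pair the libraries: deviations from the group means correlated at -0.23 to 0.104 over 45 same-numbered pairs and at -0.212 to 0.243 over 90 others. With the number as a replicate block the counts were 6 with CHIR99021, 10 with BCS, 14 after sorting, 34 in serum and 29 in serum-free vesicles against normal cells, and 15 between the vesicles. Of all genes 7.23%, 19.8%, 24.9%, 59.9%, 57% and 22.3% were called there.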
